A study of Mus musculus with 8 samples.

Results

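The genes described here are 10 genes of the G1 control circuit: the D-type cyclin genes Ccnd2 and Ccnd3, the genes of their partner kinases Cdk4 and Cdk6, the inhibitor genes Cdkn1a and Cdkn1b of the CIP/KIP family, and the inhibitor genes Cdkn2a, Cdkn2b, Cdkn2c and Cdkn2d of the INK4 family. They were chosen by name, and every Smad4 peak that met the annotated body of a gene or the 10 kb on either side of it, called its territory here, was counted. All 10 were found among the 21779 protein-coding genes used, and their territories form 9 separate stretches of 556 kb in all, because those of Cdkn2a and Cdkn2b overlap. Smad4 was mapped by chromatin immunoprecipitation and sequencing in CD4+ T cells of C57BL/6 mice, taken from spleen and lymph nodes, activated, and examined 12 h into treatment with IL6 plus a TGFbR inhibitor. The 2 wild-type (WT) libraries, WT1 and WT2, came from females. The 2 knockout libraries, KO1 and KO2, had the genotype CD4cre;Smad4fl/fl, in which a Cre recombinase driven by Cd4 sequences removes the floxed Smad4 allele in the T lineage; KO1 was a pool of males and females and KO2 was male, so sex and genotype cannot be told apart. All 4 libraries share the cytokine and the inhibitor, and no library without them is compared. The labels do not say whether replicates were separate animals, and p-values then refer to these samples only.

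D cyclins bind Cdk4 or Cdk6, and the active kinases phosphorylate the retinoblastoma protein, which releases E2F factors and lets a cell pass from G1 into S phase. INK4 proteins bind Cdk4 and Cdk6 and keep them from the cyclins, whereas CIP/KIP proteins bind cyclin and kinase complexes and inhibit above all those with Cdk2. T cells leave quiescence through this circuit after activation, and TGF-β, whose signals Smad4 carries together with receptor-regulated SMADs, is known to arrest epithelial cells in G1, with Cdkn2b and Cdkn1a among the genes induced there.

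The deposited lists held 27120 peaks in WT1, 19792 in WT2, 564 in KO1 and 424 in KO2. Read depth is unknown, and depth and binding cannot be told apart as sources of these totals. The lists carry positions only, with no height or score. They are not sorted by position, and a peak's place in its list followed its width (Spearman correlation -0.953, -0.950, -0.849 and -0.804 in the order above). What the authors ordered the lists by is not given, and places are used below only to describe peaks within a list. Over the 16501 regions called in both WT lists, the places in the WT lists had a Spearman correlation of 0.825. The labelled cell type was checked by presence of peaks only, which does not measure expression: a region called in WT1 and WT2 and in neither KO library lay at 7 of 7 T cell marker genes, 0 of 2 CD8 T cell markers, 2 of 5 B cell markers and 0 of 4 myeloid markers, against 44.3% of all protein-coding genes.

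The starts of these genes are shown first, because the peaks of several members lie on them and those of others do not. RefSeq (GRCm38.p6, the mm10 assembly) lists 13 transcription starts for 9 of the 10 genes. Ccnd2 has none listed, so its start was not assessed. A WT-only region is one merged from peaks of both WT libraries that meets no KO peak. Of the 13 starts, 9 in 7 genes lay inside such a region. Over all protein-coding genes with a listed start, 25.3% of starts and 26.9% of genes had this; regions of both WT libraries, whatever the KO libraries showed, held 25.7% of starts. By single peaks, 6 of the 13 starts lay inside a peak of both WT libraries, 3 inside one of WT1 alone, 1 inside one of WT2 alone, and 3 outside. The shares over all genes above are for merged regions, and none is given for single peaks. The 250 bases before 7 of the starts follow, 5′ to 3′ on the gene's strand. Capitals mark the SMAD box CAGAC (or GTCTG on the other strand) and the GC-rich SMAD motif GGCGC (or GCGCC), which may overlap each other.
Cdkn1a, outer start, outside all peaks (chr17:29090729-29090978, + strand): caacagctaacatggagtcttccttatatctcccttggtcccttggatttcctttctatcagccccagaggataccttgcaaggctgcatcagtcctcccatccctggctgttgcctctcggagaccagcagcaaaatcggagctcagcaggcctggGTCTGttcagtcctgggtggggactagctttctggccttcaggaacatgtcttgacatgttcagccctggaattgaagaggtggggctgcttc
Cdkn1a, inner start, in a WT-only region (chr17:29093519-29093768, + strand): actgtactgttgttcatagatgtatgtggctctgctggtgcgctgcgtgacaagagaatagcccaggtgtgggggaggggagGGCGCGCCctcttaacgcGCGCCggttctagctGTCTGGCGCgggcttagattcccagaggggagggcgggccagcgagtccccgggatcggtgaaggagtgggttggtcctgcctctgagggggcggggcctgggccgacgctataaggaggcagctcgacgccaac
Cdkn1b, in a WT-only region (chr6:134920151-134920400, + strand): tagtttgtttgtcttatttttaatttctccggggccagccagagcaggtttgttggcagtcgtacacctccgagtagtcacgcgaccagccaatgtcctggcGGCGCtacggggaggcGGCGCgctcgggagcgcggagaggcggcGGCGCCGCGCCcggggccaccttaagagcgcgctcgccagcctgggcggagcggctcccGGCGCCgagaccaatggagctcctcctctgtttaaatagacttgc
Cdkn2d, in a WT-only region (chr9:21291210-21291459, - strand): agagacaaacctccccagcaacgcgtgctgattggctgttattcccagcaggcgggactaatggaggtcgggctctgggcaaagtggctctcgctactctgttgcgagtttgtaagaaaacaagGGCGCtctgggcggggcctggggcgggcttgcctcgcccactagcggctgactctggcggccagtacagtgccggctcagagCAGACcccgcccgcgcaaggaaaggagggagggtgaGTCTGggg
Ccnd3, outer start, in a WT-only region (chr17:47504801-47505050, + strand): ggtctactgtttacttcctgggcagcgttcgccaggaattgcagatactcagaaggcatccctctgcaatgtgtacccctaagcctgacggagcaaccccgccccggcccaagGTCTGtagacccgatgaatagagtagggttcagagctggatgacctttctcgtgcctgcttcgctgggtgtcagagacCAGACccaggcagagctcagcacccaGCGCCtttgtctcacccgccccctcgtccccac
Cdkn2b, in a peak of WT1 alone (chr4:89311033-89311282, - strand): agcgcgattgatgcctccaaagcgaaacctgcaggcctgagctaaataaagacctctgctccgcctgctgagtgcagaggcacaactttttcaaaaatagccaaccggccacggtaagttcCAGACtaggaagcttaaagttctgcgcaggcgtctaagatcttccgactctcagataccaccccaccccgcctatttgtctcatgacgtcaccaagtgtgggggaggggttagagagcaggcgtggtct
Cdkn2a, outer start, outside all peaks (chr4:89294620-89294869, - strand): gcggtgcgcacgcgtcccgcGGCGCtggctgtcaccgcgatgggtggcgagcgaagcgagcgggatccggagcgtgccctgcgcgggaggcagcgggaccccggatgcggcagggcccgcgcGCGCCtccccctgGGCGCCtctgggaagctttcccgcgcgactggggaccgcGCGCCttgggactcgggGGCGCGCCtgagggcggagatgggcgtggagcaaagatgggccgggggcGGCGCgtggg

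Both kinds of start, with and without peaks, held these motifs. The outer start of Cdkn1a, with no peak, and the start of Cdkn2b, with a peak in 1 library, each have 1 SMAD box and no GGCGC. Cdkn1b, whose start lies in one of the widest regions of the set, has no SMAD box and 7 matches to GGCGC. The outer start of Cdkn2a has 8 matches to GGCGC and lay outside all peaks. Over the 21263 listed starts of protein-coding genes, the SMAD box was found before 40.8% of the 5468 starts inside a reproducible WT region and before 40.9% of the 15795 others. GGCGC was found before 67.7% and 31.2%, in windows whose median GC content was 63.2% and 52.8%. Among the 13 member starts, 6 windows held CAGAC and 9 held GGCGC. None of the 13 held the AP-1 motif TGANTCA, the STAT motif TTCNNNGAA or the palindromic SMAD element GTCTAGAC, present before 6.13%, 6.58% and 0.183% of all starts. Another GC-rich motif, GGCCG, was found in 9 member windows and before 37.6% of all starts, the ETS motif CCGGAAG in 1 window and before 8.98%, and the E-box CACGTG in 2 windows, those of Cdk4 and Cdk6, and before 6.63%. Both strands were searched for each motif. These counts describe letters in the window and do not show which sites were bound.

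Smad4 peaks of both WT libraries lay at 8 of the 10 genes, and in each of these 8 at least 1 region met no KO peak. The genes without such a region were Cdkn2a and Cdkn2b. Of all protein-coding genes, 44.3% held such a region and 44.8% a region of both WT libraries with or without a KO peak. By length of territory, 5 of 6 members under 30 kb held a WT-only region (31.3% of all such genes), 1 of 2 members of 30 to 60 kb (50%) and 2 of 2 members of 60 kb or more (53.9%). A WT-only region was centred within 1 kb of an end of the gene itself in 7 of the 10, against 27.8% of all genes. The set was put together with results of these data known, so its share is given beside this background without a test.

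Taken library by library, WT1 had a peak at all 10 genes (53.5% of all protein-coding genes), WT2 at 8 (48.5%), KO1 at 3 (1.87%) and KO2 at 1 (1.16%). A peak of either WT library lay at all 10 (55.8%), and peaks of both KO libraries at 1, Cdk6 (0.615%). In the territories WT1 had 59 peaks, WT2 52, KO1 3 and KO2 2. Both WT values lay far above both KO values, as did the totals of the whole lists. Member peaks made up 0.218% and 0.263% of the lists of WT1 and WT2, and 0.532% and 0.472% of those of KO1 and KO2. Relative to the whole lists, the gap between WT and KO was thus not wider at these genes, with only 3 and 2 KO peaks counted. The means were 55.5 ± 4.95 peaks in WT and 2.5 ± 0.707 in KO (SD, n = 2 each), a difference of 4.02 on the log2(peaks + 1) scale. The 2-sided exact permutation test gave p = 0.333, the smallest value that 2 against 2 samples can give. Covered length was 43915 and 35211 bp in the WT libraries against 1234 and 782 bp in the KO libraries, a difference of 5.32 on the log2(bp + 1) scale (exact permutation p = 0.333, again the smallest possible).

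**Figure D1:**
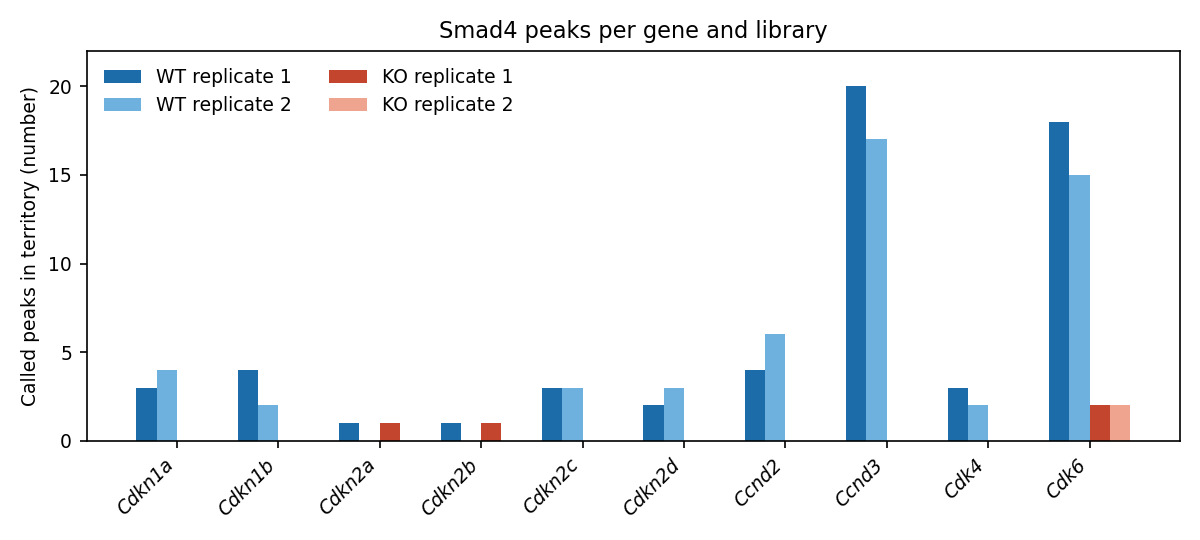
Number of called Smad4 peaks in the territory of each gene (body and 10 kb on both sides), with 1 bar for each library; bars start at 0 and have no error bars because each is a single count. Ccnd3 and Cdk6 have the most WT peaks (20 and 17, and 18 and 15), and KO peaks appear only at Cdkn2a, Cdkn2b and Cdk6.

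Merged over all lists, the peaks at these genes formed 40 WT-only regions, 2 regions called in all 4 libraries, 17 peaks of WT1 alone, 7 of WT2 alone and 1 of KO1 alone. Thus 40 of the 42 regions of both WT libraries met no KO peak, as did 96.2% of such regions over the genome. WT-only regions had a median peak width of 713 bp in WT1 and 602 bp in WT2, while both kinds of unshared peak had a median of 306 bp and none exceeded 640 bp. Unshared peaks also stood low in their lists: the highest was 39.1% of the way down the list of WT1 and 63.9% down that of WT2. Of the member peaks of WT1, 71.2% (42 of 59; exact 95% Clopper-Pearson interval 57.9% to 82.2%) met a peak of WT2, and 61.5% did so over the whole list. In the other direction the share was 86.5% (45 of 52; 74.2% to 94.4%) at these genes and 85.8% over the whole list. These intervals cover counting error only.

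The 40 WT-only regions had a median width of 795 bp, from 350 to 4836 bp, where the 15882 WT-only regions of the genome had a median of 644 bp. In 33 of the 40 the centre lay inside the member gene or within 1 kb of one of its ends, and 7 lay in a flank. For 5 regions another protein-coding gene was nearer: Faf1 beside Cdkn2c, Kri1 beside Cdkn2d, Taf8 and Bysl beside Ccnd3, and Agap2 beside Cdk4. Relative to any protein-coding gene, 27.5% of the 40 were centred within 1 kb of a gene end (interval 14.6% to 43.9%) and 65.0% elsewhere inside a gene (48.3% to 79.4%). The remaining 7.5% lay outside genes. Over all WT-only regions these shares were 33.7%, 38.3% and 28.1%. Because the 40 were taken from gene bodies and 10 kb of flank, the rule itself keeps them near genes, and the gap between the 2 sets of shares is partly fixed by it. The long genes Ccnd3 and Cdk6 hold 14 and 11 of the 40. The intervals treat all 40 as independent and cover counting error only.

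**Figure D2:**
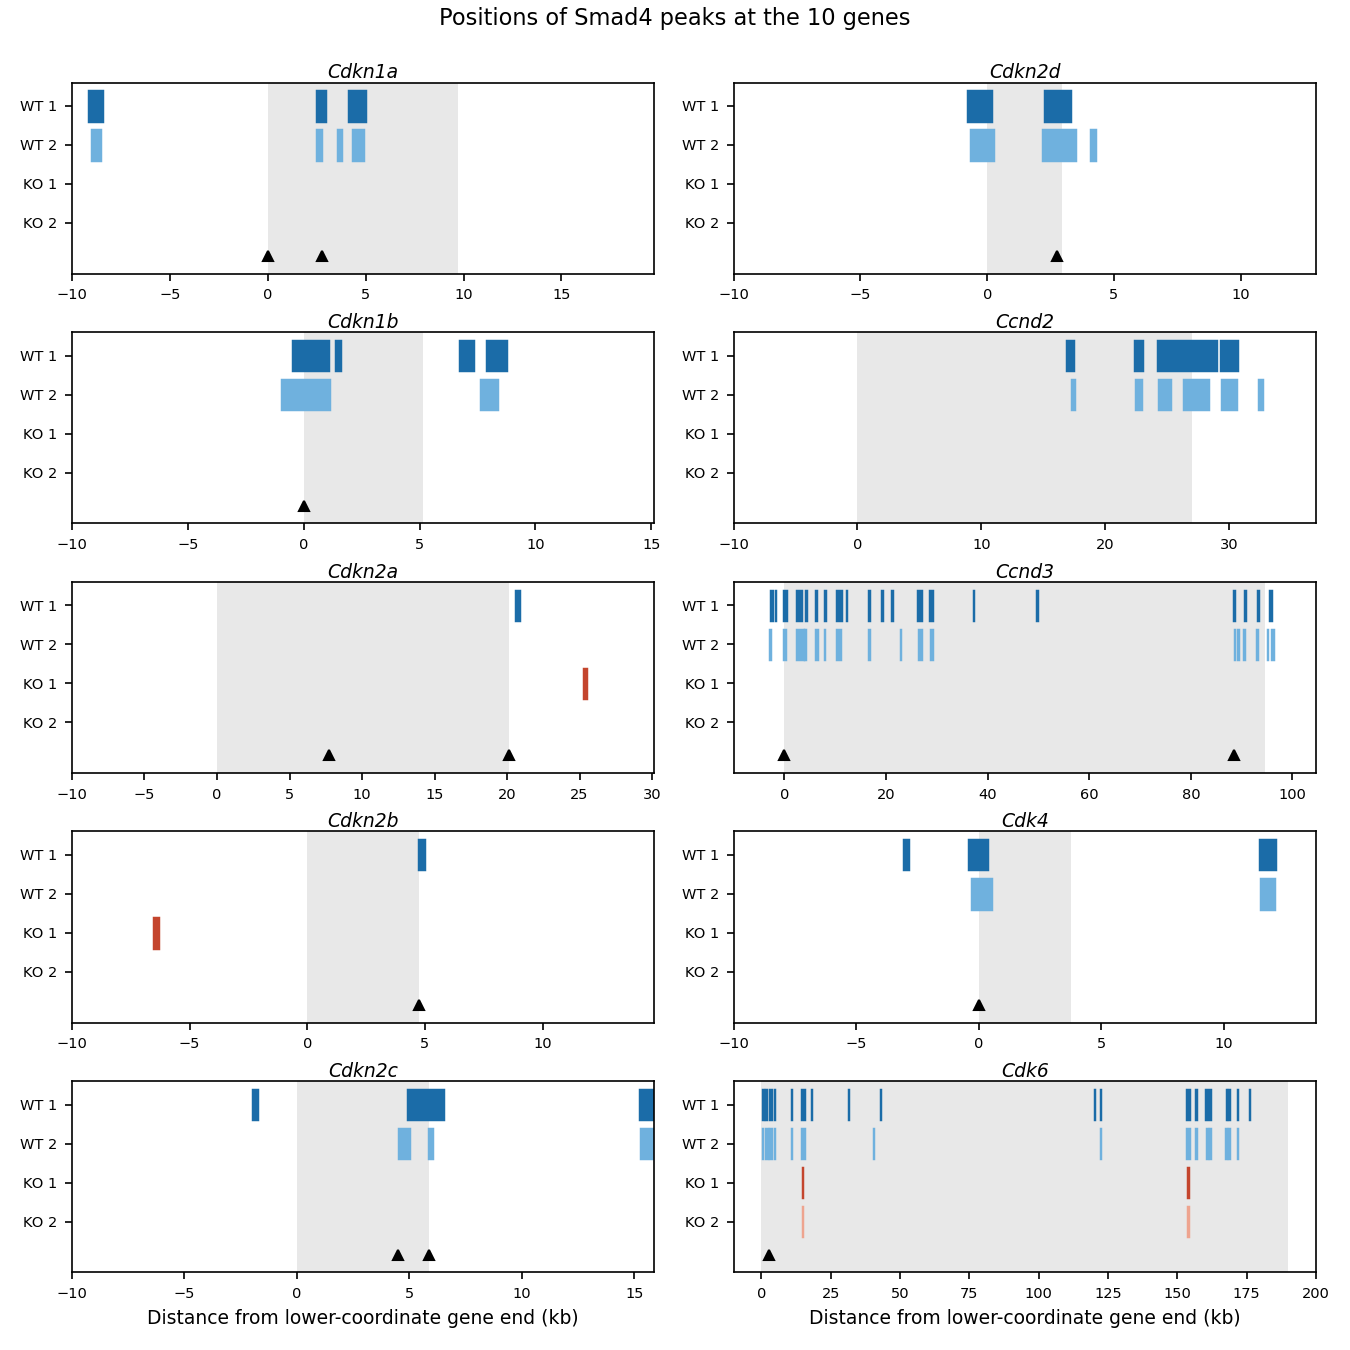
Positions of Smad4 peaks at the 10 genes in 4 rows for WT1, WT2, KO1 and KO2, against the distance in kb from the end of the gene with the lower coordinate; blocks are peaks drawn to scale with a thin outline, grey marks the gene body and black triangles the RefSeq starts listed. WT blocks of both replicates line up at 8 genes, and KO blocks lie on WT blocks only at Cdk6.

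Cdkn1a (chromosome 17, 29090979 to 29100722), which encodes p21, the CIP/KIP inhibitor induced by p53 and by growth-arrest signals, had 3 peaks in WT1, 4 in WT2 and none in either KO library. The peaks formed 3 WT-only regions. One of 804 bp lay 8.40 kb outside the gene on the side of its start (29081778 to 29082581), with peaks of 804 and 548 bp in WT1 and WT2. One of 536 bp held the inner start (29093436 to 29093971), with peaks of 536 and 302 bp; the peak of WT2 ended 12 bp short of that start. The widest, of 966 bp, lay further inside the gene (29095058 to 29096023), with peaks of 966 and 630 bp. The nearest peak to the outer start was 2457 bp away in WT1 and 2477 bp away in WT2. With 1.01 WT-only regions per 10 kb of territory, Cdkn1a was denser than 98.0% of protein-coding genes. This rank rests on 3 regions, and the median density over all protein-coding genes was 0.

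Cdkn1b (chromosome 6, 134920401 to 134925525), which encodes p27, the CIP/KIP inhibitor that holds resting T cells out of the cycle, had 4 peaks in WT1, 2 in WT2 and none in KO. Its start lay in a WT-only region of 2134 bp (134919413 to 134921546), with peaks of 1600 and 2134 bp in WT1 and WT2. This region was wider than 97.7% of all WT-only regions, and its peaks stood 4.5% and 2.7% of the way down their lists. A second WT-only region of 1167 bp lay beyond the other end of the gene (134928026 to 134929192), with peaks of 940 and 758 bp, and reached the annotated lncRNA gene Lockd. The other 2 peaks, of 240 and 640 bp, were called in WT1 alone.

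The INK4 genes divided into 2 with reproducible Smad4 regions, Cdkn2c and Cdkn2d, and 2 without, Cdkn2a and Cdkn2b. Cdkn2a (chromosome 4, 89274473 to 89294619) encodes p16 and, from another reading frame, the p53 activator Arf, and Cdkn2b (chromosome 4, 89306289 to 89311032) encodes p15. The genes lie 11.7 kb apart, and both are known to be kept silent in young proliferating cells and to rise in senescence. In WT1 Cdkn2a had 1 peak of 306 bp (89295040 to 89295345), 0.421 kb beyond its outer start, and Cdkn2b had 1 of 300 bp over its start (89310988 to 89311287). WT2 had no peak in either territory. Both peaks were low in the list of WT1, at 86.8% and 79.9% of the way down. KO1 had a peak of 254 bp between the genes (89299728 to 89299981), 94.0% of the way down its list and met by no WT peak; it counts for both genes because their territories overlap. Of all protein-coding genes, 7.3% had peaks in WT1 and none in WT2. With regions taken from WT1 alone, Cdkn2a and Cdkn2b would each hold 1 WT-only region, and all 10 members at least 1, while the share over all protein-coding genes would be 53.2%.

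Cdkn2c (chromosome 4, 109660876 to 109666756), which encodes p18, had 3 peaks in each WT library and none in KO. At its starts the libraries divided the signal differently. WT1 had 1 peak of 1648 bp (109665754 to 109667401), and WT2 had peaks of 560 bp (109665348 to 109665907) and 242 bp (109666688 to 109666929) that both touch it. The merged WT-only region of 2054 bp (109665348 to 109667401) held both listed starts, but the shared bases were 19.3% of the bases covered by either library, where the median over all WT-only regions was 71.5%. A second WT-only region of 1032 bp (109676098 to 109677129), with peaks of 1032 and 984 bp, reached the edge of the territory and held the start of Faf1, which encodes a Fas-associated factor; its centre lay nearer to Faf1 than to Cdkn2c.

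Cdkn2d (chromosome 9, 21288459 to 21291421), which encodes the p19 INK4 protein, had 2 peaks in WT1, 3 in WT2 and none in KO. Its start lay in a WT-only region of 1332 bp (21290614 to 21291945), with peaks of 1076 and 1332 bp in WT1 and WT2. The other end of the gene met a WT-only region of 1039 bp (21287674 to 21288712), with peaks of 960 and 926 bp, which also held the start of the neighbouring gene Kri1. The libraries had 80.8% and 81.5% of the covered bases of these regions in common. A peak of 242 bp in WT2 alone stood at 99.7% of its list.

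Both D cyclin genes of the set, which encode the D cyclins chiefly used by lymphocytes, were bound in both WT libraries and free of KO peaks, in different arrangements. Ccnd2 (chromosome 6, 127125162 to 127152188) had 4 peaks in WT1 and 6 in WT2, all toward its higher-coordinate end. There, a WT-only region of 4836 bp (127149383 to 127154218) was wider than 99.96% of all WT-only regions. It was a single peak in WT1, at 0.450% of the list, and 2 peaks of 1052 and 2164 bp in WT2. A region of 1454 bp followed 2.21 kb outside the gene (127154399 to 127155852), with peaks of 1454 and 1300 bp. Regions of 719 and 672 bp lay inside the gene. WT peaks covered 16.1% and 12.4% of the territory in WT1 and WT2, the highest shares among the 10 genes. One end of the lncRNA gene 9330179D12Rik lies within the widest region, and that gene overlaps this end of Ccnd2, so the region cannot be given to one of the 2 genes by position.

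Ccnd3 (chromosome 17, 47505051 to 47599689) had 20 peaks in WT1, 17 in WT2 and none in KO. They made 14 WT-only regions, the largest number in the set; 99.9% of protein-coding genes had fewer. With Cdk6 it was 1 of 2 members with 10 or more WT-only regions, which 0.395% of all protein-coding genes had. These shares are not matched for length. The territories of Ccnd3 and Cdk6 span 115 and 210 kb, against a median of 37.2 kb over all protein-coding genes. Per 10 kb of territory, Ccnd3 was denser than 98.8% of protein-coding genes. The regions formed 2 groups with 59.2 kb between them. The first held 10 regions over 32.3 kb, from the neighbouring Taf8 across the outer start to 29.2 kb inside the gene. The second held 4 regions over 7.93 kb around the inner start and the far end, where the last region lay in Bysl. The outer start lay in a region of 824 bp (47504668 to 47505491), with peaks of 824 and 590 bp in WT1 and WT2. The widest region, of 1636 bp, lay inside the gene (47507238 to 47508873), with peaks of 1298 and 1490 bp, and one of 1196 bp followed (47515263 to 47516458), with peaks of 1196 and 992 bp. The inner start had only a narrow region of 350 bp, with peaks of 240 and 242 bp, each at the smallest width of its list. Peaks in 1 WT library alone numbered 6 in WT1 and 3 in WT2.

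By covered bases per 10 kb of territory in the 4 libraries, Ccnd3 stood at 922 and 767 bp in WT and 0 in both KO libraries. The 3 protein-coding genes most like it, by Euclidean distance of these values on the log2(bp + 1) scale, were Thap11 (distance 0.0256), Myl6 (0.0326) and Rpl24 (0.0413). With 4 libraries, and both KO libraries at 0, this likeness rests on the WT values only.

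The kinase genes differed in the number of regions and in what the KO libraries showed. Cdk4 (chromosome 10, 127063535 to 127067288) had 3 peaks in WT1, 2 in WT2 and none in KO. Its start lay in a WT-only region of 951 bp (127063111 to 127064061), with peaks of 804 and 856 bp in WT1 and WT2 that shared 74.6% of their bases. A second region of 682 bp lay 7.69 kb beyond the gene, inside Agap2 (127074980 to 127075661). The 250 bases before the Cdk4 start held 4 E-boxes CACGTG and neither SMAD motif marked above.

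Cdk6 (chromosome 5, 3341004 to 3531008) had 18 peaks in WT1 and 15 in WT2. Unlike every other member, it also had KO peaks that lay on WT peaks, 2 in each KO library. Its reproducible regions stood in 3 groups. The first held 6 regions over the 15.5 kb at the start of the gene, including one of 1244 bp over the listed start (3343719 to 3344962; peaks of 1244 and 1118 bp in WT1 and WT2). After 106 kb a lone region of 502 bp followed, and after another 30.6 kb the last group of 6 regions over 18.9 kb. The widest WT-only region of the gene, 2338 bp (3500893 to 3503230), lay in the last group, as 1 peak of 2092 bp in WT1 and 2 peaks in WT2. Of the 13 regions, 11 were WT-only. Fewer were held by 99.7% of protein-coding genes, but only 90.3% had a lower density per 10 kb of territory.

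The other 2 regions of Cdk6 were called in all 4 libraries; 0.565% of protein-coding genes had at least 1 such region. The first (3355142 to 3356629) was centred 14.9 kb from the lower-coordinate end of the gene. Its peaks were 1488 bp wide in WT1, 1364 bp in WT2, 468 bp in KO1 and 358 bp in KO2. The second (3494139 to 3495554) was centred 154 kb from that end and led the last group. Its peaks were 1416, 1182, 512 and 424 bp wide in the same order. The WT peaks were thus wider than the KO peaks at both regions, and each KO peak lay inside both WT peaks, with its centre within 85 bp of the centre in WT1.

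These regions stood near the top of the WT lists. The second region was at place 34 of 27120 in WT1 and place 44 of 19792 in WT2, and the first at places 120 and 197. In the KO lists the second stood at place 33 of 564 and 42 of 424, and the first at places 99 and 92. For such places the WT peaks were narrow. The second region stood too near the top to have 50 peaks above it. The peaks up to 50 places on either side of it had a median width of 2750 bp in WT1 and 2493 bp in WT2. At the first region these medians were 2194 and 1940 bp. Peaks at the top of the lists met KO peaks often. Of the first 1% of the list, 36.9% met a peak of either KO library in WT1 and 36.5% in WT2, against 2.39% and 3.14% of the whole lists. Of all reproducible WT regions, 1.17% were called in both KO libraries, and 12 protein-coding genes (0.0551%) had 2 or more such regions. What gave the KO peaks was not tested.

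**Figure D3:**
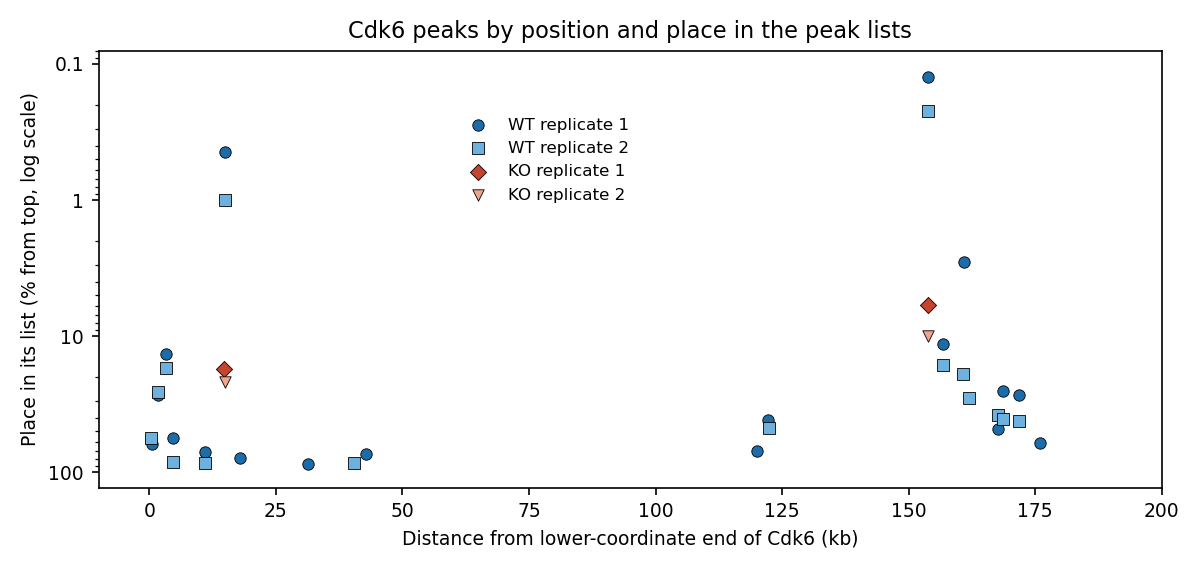
Place of each Cdk6 peak in its own list, in percent from the top on a log axis with the top of the list uppermost, against the distance in kb of the peak's centre from the lower-coordinate end of the gene; each point is a peak and colours give the library. The KO points share their position with the highest WT points, at 14.9 and 154 kb, and no KO point lies elsewhere in the gene.

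Counted over the set, 3 of the 10 genes had a KO peak in their territory, against 2.42% of all protein-coding genes. The count is small and rests on KO1 for Cdkn2a and Cdkn2b, which share 1 peak: without that library, with bodies and 5 kb of flank, with bodies alone or with the wider 50% of each list, Cdk6 alone remained. In the other 7 genes no KO peak was called.

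**Figure D4:**
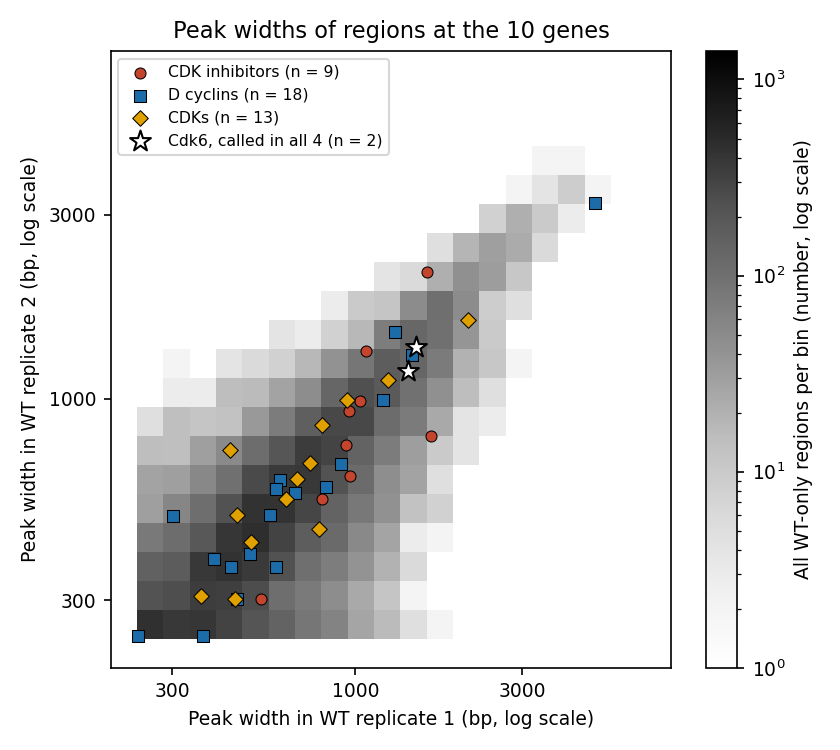
Width of the WT peaks of each region in WT1 against WT2 (bp, log axes; widths are summed where a library has 2 peaks in the region), with symbols for the 40 WT-only regions at CDK inhibitor, D cyclin and kinase genes and stars for the 2 Cdk6 regions called in all 4 libraries; grey squares count all WT-only regions of the genome per bin. The member regions follow the range of all regions, and the Ccnd2 region with 4836 and 3216 bp stands at the upper end.

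In 30 of the 40 WT-only regions (75.0%) WT1 had the wider peak, and in 67.4% of all WT-only regions. The 2 libraries shared a median of 69.1% of the covered bases at the member regions, and 71.5% over all WT-only regions. By number of WT-only regions the order of the genes was Ccnd3 (14), Cdk6 (11), Ccnd2 (4), Cdkn1a (3), then Cdkn1b, Cdkn2c, Cdkn2d and Cdk4 (2 each), and Cdkn2a and Cdkn2b (0). Only Ccnd3 and Cdk6 stood apart from the rest in both WT libraries, since the peak counts of the 6 genes between ranged from 2 to 4 in WT1 and from 2 to 6 in WT2. Per 10 kb of territory the order changed. Ccnd3 had 1.22 regions, Cdkn1a 1.01, Cdkn2d 0.871, Ccnd2 0.851, Cdk4 0.842, Cdkn1b 0.796, Cdkn2c 0.773 and the long Cdk6 0.524.

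Other genes of the G1 to S transition, in a list of 29 drawn up from their known roles, were also counted. Like the members, the list was chosen with earlier results of these data known. A WT-only region lay at 23 of the 29 (79.3%), against 44.3% of all protein-coding genes. A KO peak lay in the territory of 0 of the 29 and of 2.42% of all protein-coding genes. At so low a share, 0 in a list of 29 does not set it apart. The median density was 0.201 WT-only regions per 10 kb, against 0.819 in the 10 members and 1.19 in the 7 T cell marker genes. Median territories were 43.8 kb in this list, 27.8 kb in the members and 43.6 kb in the markers. Ranked by the summed width of the peaks of WT1 and WT2 in a region, the list was led by E2f3 (peaks of 2196 and 1474 bp in WT1 and WT2) and E2f2 (1792 and 1506 bp), both genes of E2F factors that activate S phase genes. They were followed in summed width by Rb1, the retinoblastoma gene (1206 and 1646 bp), and Ccne2, a gene of an E cyclin that activates Cdk2 (1236 and 906 bp). Ccnd1, the third D cyclin gene, had 1 peak in WT1 and none in the other libraries, and E2f1 had 2 peaks in WT2 alone; both were named after their values were seen. The remaining genes without a WT-only region were E2f6, Tfdp1, Cdc25a and Cdk7.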

How the data were processed

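The study's 8 samples were 4 Smad4 ChIP libraries (2 WT, 2 KO) and 4 inputs, which were not analysed here. The authors deposited 1 peak list per ChIP library, as chromosome, start and end on mm10, so replicates were not pooled. Bowtie, HOMER 4.8.3 and Trim Galore appear in the submitters' processing notes, with no role given. Calling thresholds, use of inputs and depth are unstated there, and each can change which peaks are called. Starts were converted to 1-based positions. Gene bounds, listed starts and promoter sequences came from RefSeq tables on GRCm38.p6 (21779 of 21900 protein-coding genes; genes below 3 Mb outside Y, and those on no placed chromosome, were left out). WT peaks meeting by at least 1 bp were merged. Groups of regions were split at gaps of 15 kb. The exact permutation test was 2-sided on log2(value + 1). Region calling was checked on simulated peaks. The 10 genes were all named; from other lists, the 4 genes with the widest WT-only regions by summed WT peak width and those with a KO peak, plus genes nearest to a member region and the 3 genes most like Ccnd3. The members and lists were chosen with earlier results of these data known. Versions were SciPy 1.17.1, pandas 2.3.3, numpy 2.4.6 and matplotlib 3.10.9 under Python 3.11.15.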

Additional observations from a re-analysis of the deposited data

How the results depend on the processing

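Of 60 alternative values, 52 stayed on the same side or within 1.5 times of the reported value or within its interval. The WT to KO differences were judged by sign alone, which list totals this unequal left almost no room to reverse. Pairing same-numbered libraries returns the same mean difference by arithmetic. The count of 52 therefore includes values that could hardly have moved. Requiring peak centres within 100 bp lowered the WT-only regions from 40 to 25. The genes with such a region fell from 8 to 7 (37.1% of all genes). The gene lost was Cdkn1b, whose paired centres lay 224 and 318 bp apart. Under the same rule the shared peaks fell to 45.8% and 51.9% of WT1 and WT2. An overlap of 50% of both peaks lowered the share of WT2 to 69.2%. The genes with a KO peak fell from 3 to 1 with the wider 50% of each list, with gene bodies only and with 5 kb of flank; it was also 1 without KO1, since Cdkn2a and Cdkn2b rest on 1 peak of KO1. Leaving out 1 library gave 8 to 10 genes with a WT-only region (44.4% to 53.2% of all genes), 40 to 57 regions, 1 to 3 genes with a KO peak (1.16% to 1.87% of all genes), and WT to KO differences of 3.82 to 4.23 for log2(peaks + 1) and 4.99 to 5.65 for log2(bp + 1); where a group kept 1 library no test was made. Without WT2, Cdkn2a and Cdkn2b each gained a region. The replicate numbers give no stated pairing, and gene-wise deviations of same-numbered libraries had a correlation of 0.0158. KO1 and KO2 differed at only 416 of the 21779 genes, where the correlation was 0.0155, so this value cannot decide on pairing. With a replicate block, 8 genes and 40 regions were found again, and the paired differences were 3.91 and 4.14 for peaks and 5.15 and 5.49 for covered bases (means 4.02 and 5.32). Without scores or depth, a missing peak does not show missing binding.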

Other observations

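Genes of the G2 and M phases, which act after the circuit described above, were counted in the same way. Of 16 such genes, in a list also chosen with earlier results of these data known, 11 held a WT-only region (68.8%, against 44.3% of all protein-coding genes). A KO peak lay at 0 of the 16 and at 2.42% of all protein-coding genes, so 0 in a list this short does not set it apart. Their median density was 0.275 regions per 10 kb, against 0.819 in the 10 genes above, with median territories of 34.3 and 27.8 kb. By the summed width of the WT1 and WT2 peaks in a region, the list was led by Bub1b, a gene of the spindle checkpoint (peaks of 766 and 952 bp in WT1 and WT2), and Wee1, whose kinase holds back Cdk1 (842 and 840 bp). Pkmyt1, a gene of a related kinase, had peaks of 1154 and 318 bp, and the mitotic kinase gene Aurkb had peaks of 762 and 686 bp. Cdk1, Ccnb2 and Plk1 had no peak in any library; these 3 were named after their values were seen.

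Among the T cell marker genes used to check the labelled cell type, those with the widest WT-only regions by summed peak width were Cd28 (peaks of 2346 and 1632 bp in WT1 and WT2), the neighbouring Cd3d and Cd3g, which share a region (1950 and 1860 bp), and Cd247 (1438 and 1250 bp). Cd247, a gene of the T cell receptor complex, also had 1 peak in each KO library. The B cell marker Cd79a, a gene of the B cell receptor complex, held 5 WT-only regions, the widest with peaks of 1118 and 1622 bp, and Pax5 held 1. Cd8b1, a gene of the CD8 coreceptor, had 3 peaks in WT1, 0 in WT2 and 1 in KO1. Peaks do not measure how many cells of a type were present.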
